A study of Mus musculus with 2 samples.

Results

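The dense clusters of distal sites described here are 79 stretches of the mouse genome in which 6 or more DNase I-accessible regions lie close together, away from annotated gene starts. They hold 598 regions. The members were chosen by the measured peak calls themselves: overlapping peaks of both libraries were merged into 100545 regions, the 52787 with a peak in both libraries were kept, and 31515 of these had their midpoint over 1 kb from every transcription start site (TSS) of the GENCODE M21 annotation. Neighbouring regions separated by at most 12.5 kb were stitched into 23235 groups, and the groups with 6 or more regions were called domains. They are 0.340% of the groups and hold 1.90% of the shared distal regions, shares that the rule itself fixes. A domain was ranked by its summed peak signal, a strength that the authors normalized for read depth and whose scale is not stated. It was named by the protein-coding gene whose body overlaps most of it (48 domains) or by the nearest one (31 domains), passing over genes that have only a Gm or Rik number where another was found.

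The tissue was frontal cortex, taken at 14 days of age from female mice of the strain B6CASTF1/J, the F1 cross of C57BL/6J and CAST/EiJ, and the assay was DNase-seq. There is 1 group with 2 libraries, labelled biological replicates 1 and 2, which carry separate biosample labels and the same donor label. Both descriptions bear the mark 3x, whose meaning is not given. Pooling of animals can therefore be neither assumed nor set aside, and the libraries may differ partly for technical reasons. No other tissue, age or genotype was measured, so there is no comparison between conditions and no test. Values are given for each library.

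DNase I cuts DNA where nucleosomes are absent, and such accessible sites mark promoters, enhancers and insulators. Proteins bound within an accessible site shield a few bases from the enzyme and leave a footprint. Runs of closely spaced distal sites are known around genes for transcription factors that set cell identity, but accessible sites also cluster for other reasons. Genes for transfer RNA are transcribed by RNA polymerase III from promoters inside the gene, whose A box and B box are bound by the factor TFIIIC. On the X chromosome the long noncoding RNA gene Firre and the macrosatellite locus Dxz4 hold tandem repeats that are known to bind CTCF, an architectural zinc-finger protein, on the inactive copy.

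The domains were sorted into kinds after their values had been seen, and sequences from several kinds are shown first. In the highest-ranked domain, which lies within Firre, regions spread over 57.0 kb share 1 word, GGCAGTAGA, or its variant GGCAGTATT. Both words were noticed after the data had been seen. The 5 strongest regions with the word and the 2 strongest with the variant are shown from the mm10 reference, the word in capitals: the first 5 from the minus strand at chrX:50566524-50566572, chrX:50572346-50572394, chrX:50577025-50577073, chrX:50605159-50605207 and chrX:50617146-50617194, the last 2 from the plus strand at chrX:50600415-50600463 and chrX:50603043-50603091. All lie in introns of Firre.
Firre region 1: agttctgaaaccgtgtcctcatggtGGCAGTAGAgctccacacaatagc
Firre region 2: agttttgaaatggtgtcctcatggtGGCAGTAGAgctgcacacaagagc
Firre region 4: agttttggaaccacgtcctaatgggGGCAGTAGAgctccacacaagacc
Firre region 13: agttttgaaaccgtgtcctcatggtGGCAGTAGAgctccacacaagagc
Firre region 20: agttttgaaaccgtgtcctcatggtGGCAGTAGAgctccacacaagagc
Firre region 10: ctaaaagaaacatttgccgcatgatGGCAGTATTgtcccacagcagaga
Firre region 12: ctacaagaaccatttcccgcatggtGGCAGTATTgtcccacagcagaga

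The same word recurs in the domain within 4933407K13Rik, the annotated transcript at the mouse Dxz4 locus. Its 3 strongest regions with the word are shown to set the flanking bases beside those of Firre, from the plus strand at chrX:75733820-75733868, chrX:75744625-75744673 and chrX:75749478-75749526, all intronic.
4933407K13Rik region 3: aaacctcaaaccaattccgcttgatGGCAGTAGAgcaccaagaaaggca
4933407K13Rik region 6: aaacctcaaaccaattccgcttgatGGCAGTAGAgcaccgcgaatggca
4933407K13Rik region 7: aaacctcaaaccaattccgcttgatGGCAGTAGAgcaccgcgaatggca

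In 14 other domains 1 or more regions overlap a tRNA gene, 72 of their 114 regions in all (63.2%). For 3 of these domains, 1 such gene is shown whole, the one under the strongest region of its domain that overlaps a gene with the searched box. The letters have the B box GTTCGANNC in capitals. They are tRNA genes for histidine (chr3:96500366-96500437, minus strand), aspartate (chr11:69040984-69041055, plus) and phenylalanine (chr13:21161405-21161477, plus), named as in RefSeq on GRCm38.p6.
n-THgtg8: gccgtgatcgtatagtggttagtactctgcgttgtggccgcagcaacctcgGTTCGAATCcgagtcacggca
n-TDgtc9: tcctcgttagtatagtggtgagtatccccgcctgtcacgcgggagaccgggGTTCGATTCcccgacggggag
n-TFgaa4: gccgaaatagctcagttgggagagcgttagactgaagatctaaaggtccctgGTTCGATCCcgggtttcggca

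An exact match to the CTCF consensus was found in domains such as those at Kctd17 and Msrb3. Both have more regions with it than the other domains (3 each). Their matches are shown with the consensus in capitals, from chr15:78422761-78422793 (minus), chr15:78434989-78435021 (minus), chr15:78447800-78447832 (plus), chr10:120864635-120864667 (minus), chr10:120872752-120872784 (minus) and chr10:120876365-120876397 (minus).
Kctd17 region 1: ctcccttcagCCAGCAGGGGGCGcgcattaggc
Kctd17 region 2: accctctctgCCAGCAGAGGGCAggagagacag
Kctd17 region 5: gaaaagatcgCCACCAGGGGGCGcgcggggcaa
Msrb3 region 2: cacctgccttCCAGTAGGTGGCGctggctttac
Msrb3 region 3: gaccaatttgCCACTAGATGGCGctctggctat
Msrb3 region 5: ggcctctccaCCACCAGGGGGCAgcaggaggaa

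In the Sox4 and Pou3f2 domains, at genes for forebrain transcription factors, no region overlaps a tRNA gene. None holds an exact match to these sequences in its central 200 bp. The strongest region of the Sox4 domain (chr13:28957881-28958080, intergenic) and of the Pou3f2 domain (chr4:22477041-22477240, intergenic) are shown from the plus strand, with the bases that lie under a footprint in both libraries in capitals, 72 of 200 bases at Sox4 and 22 of 200 at Pou3f2.
Sox4 region 4: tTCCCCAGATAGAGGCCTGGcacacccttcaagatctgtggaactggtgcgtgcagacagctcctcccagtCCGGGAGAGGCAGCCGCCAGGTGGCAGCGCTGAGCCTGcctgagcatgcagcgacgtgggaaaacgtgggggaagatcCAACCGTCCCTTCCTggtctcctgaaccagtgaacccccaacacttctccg
Pou3f2 region 1: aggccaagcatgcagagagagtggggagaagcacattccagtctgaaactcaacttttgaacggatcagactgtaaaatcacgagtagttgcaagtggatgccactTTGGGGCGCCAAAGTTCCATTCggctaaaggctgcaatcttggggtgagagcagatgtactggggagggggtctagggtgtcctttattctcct

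The domains spanned a median of 16.0 kb, from 3.29 kb to 65.5 kb, and held a median of 6 regions and at most 22. Of the 519 gaps between neighbouring regions 52.4% were under 1 kb, and the median gap was 865 bp. The summed signal of a domain had a median of 10.4 in replicate 1 (range 1.49 to 43.0) and of 8.44 in replicate 2 (1.42 to 48.3). Just inside the threshold, the 40 groups of 6 regions had a median summed signal of 8.27 as the mean of both libraries. Just outside it, the 110 groups of 5 regions had a median of 6.20. The 2 libraries ordered the domains alike, with a Spearman rho of 0.980 across the 79 domains, which share the regions summed in both libraries, and 8 domains were among the 10 highest in each. The ratio of replicate 1 to replicate 2 had a median of 1.22, with 73 domains higher in replicate 1. The other distal regions had a median ratio of 1.16.

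**Figure D1:**
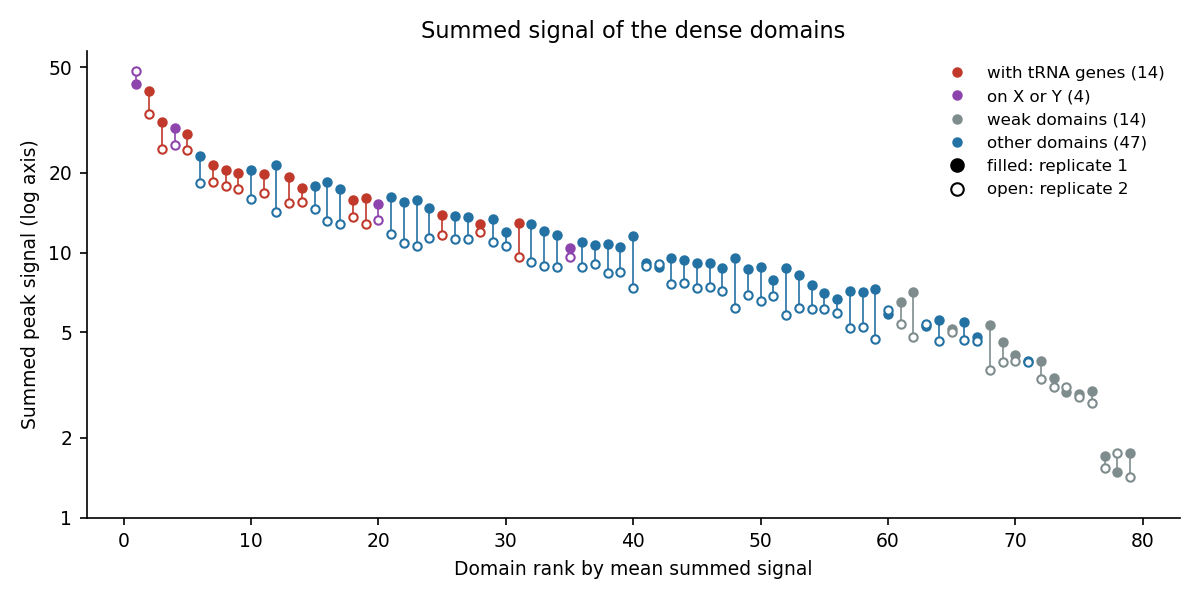
Summed peak signal (log axis) of each of the 79 domains against its rank by the mean of both libraries, filled points for replicate 1 and open points for replicate 2, joined by a line. Domains with tRNA genes (red) and on X or Y (purple) lie in ranks 1 to 35, weak domains (grey) in ranks 61 to 79.

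For description the domains were sorted into 4 kinds after their values had been seen. Of the 79, 14 hold a region that overlaps a RefSeq tRNA gene, 4 lie on the X or Y chromosome, 14 have a median region signal under 0.5 in both libraries, and 47 remain. The tRNA domains held 30.3% of the signal of all domain regions in replicate 1 and 30.8% in replicate 2. The X and Y domains held 10.3% and 12.3%, the weak domains 5.65% and 5.89%, and the remaining 47 held 53.8% and 51.1%. The weak kind is set by the signal, so its low sums are part of its definition.

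The highest-ranked domain was the Firre domain (chrX:50566441-50623440). Firre is a long noncoding RNA with roles in nuclear organization, and the nearest protein-coding gene, the olfactory receptor gene Olfr1324, is 137943 bp away. It held 22 regions, more than any other of the 79 domains, with a summed signal of 43.0 in replicate 1 and 48.3 in replicate 2 (mean 45.7 ± 3.79 SD, n = 2). No single region dominated it: the strongest gave 7.22% of the sum, the lowest share among the domains. Regions ranged from 0.897 to 3.08 in replicate 1 and from 1.15 to 3.64 in replicate 2. In 17 of the 22 regions the signal was higher in replicate 2, against 162 of all 598 domain regions, and the domain's ratio of 0.889 was the second lowest of the 79. All 22 regions are intronic.

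The word GGCAGTAGA, searched on both strands over the whole region, was present in 12 of the 22 Firre regions and the variant GGCAGTATT in 5, so that 17 regions held one or the other. A footprint overlapped the word in 11 of the 12 regions in replicate 1 and in 11 in replicate 2, and overlapped the variant in all 5 in both. The 4933407K13Rik domain, ranked 20 (chrX:75728541-75759340, 9 regions, sums of 15.2 and 13.3), had the word in 7 regions, with a footprint over it in 7 in replicate 1 and 6 in replicate 2, and the variant in none. Elsewhere the word was rare: 147 of the 30917 distal regions outside domains held it (0.475%). A footprint lay over it in 66.0% of these in replicate 1 and 55.1% in replicate 2. Firre regions had 4.00 and 3.32 footprints each, against 2.58 and 1.99 in distal regions outside domains, so the shares are not of like regions. Firre regions were 49.8% GC and 4933407K13Rik regions 58.9%. A copy within the same domain, meaning a match of at least 95% identity over at least 80% of the region, was found for 9 Firre regions and 7 of the 4933407K13Rik regions. Signal within such a domain may therefore be shared among copies by the read mapping, which was not tested.

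Both other domains on the sex chromosomes are rich in copies. The Mid1 domain, ranked 4 (chrX:169973801-169998420), lies in the gene for a microtubule-associated ubiquitin ligase, at the end of the X that pairs with the Y. It held 10 regions with sums of 29.4 in replicate 1 and 25.4 in replicate 2, and 9 of them have a copy on the Y chromosome. Its signal was uneven, from 0.221 to 8.08 in replicate 1 and from 0.283 to 7.66 in replicate 2. The 2 highest regions lie next to each other at its higher-coordinate end, at 8.08 and 7.66 for region 9 and 7.36 and 7.06 for region 10, in replicates 1 and 2. The domain ranked 35 is on the Y chromosome (chrY:90718721-90744840), in mice labelled female. It held 12 regions with sums of 10.4 and 9.62, and 7 of them have a copy elsewhere on the Y, on the X or on chromosome 7. These 12 are 75.0% of the 16 shared distal regions of the Y chromosome, where the libraries had 40 and 28 peaks in all. Whether reads from other copies account for peaks on the Y was not tested.

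**Figure D2:**
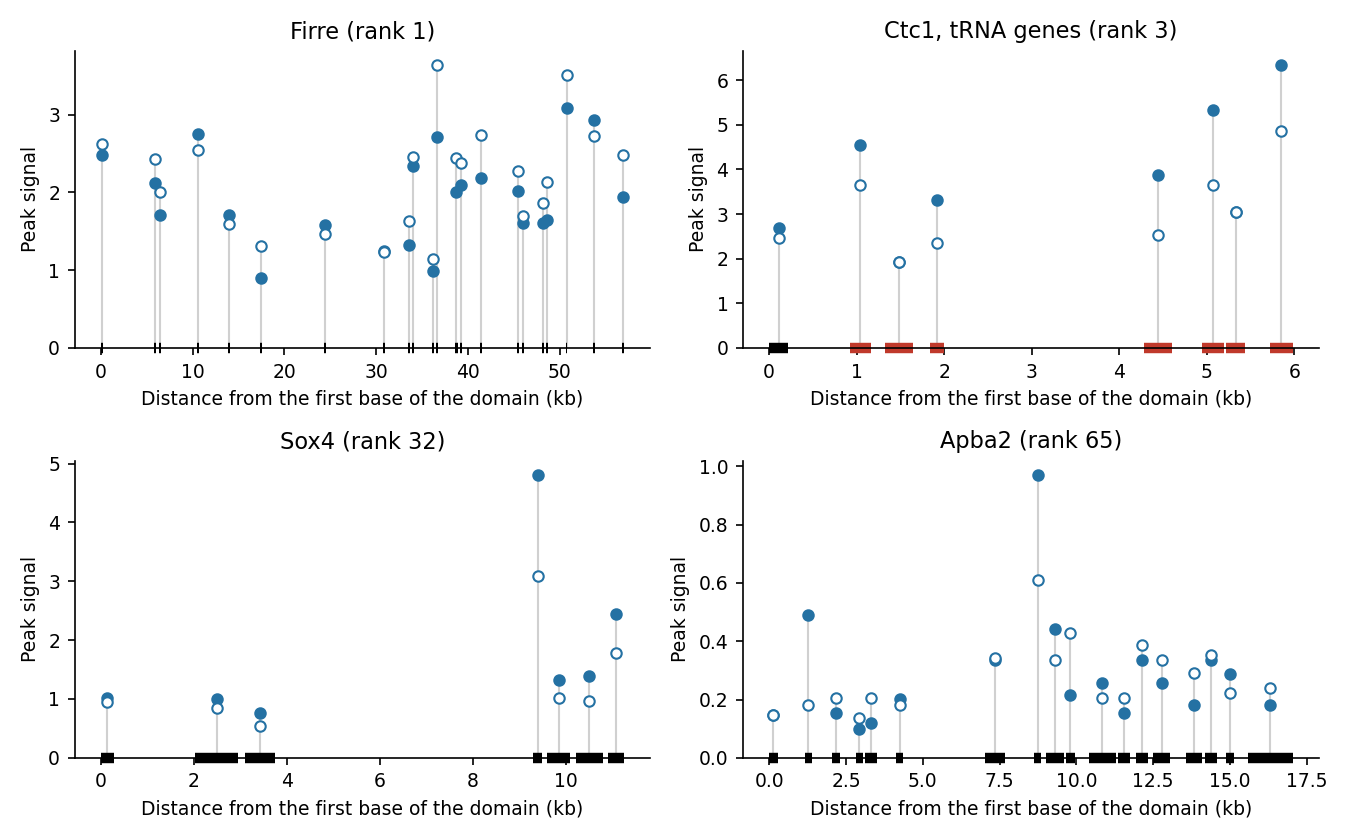
Peak signal of each region (filled points replicate 1, open points replicate 2) against distance in kb from the first base of 4 domains. Bars on the axis give region widths, red where a region overlaps a tRNA gene. The 22 Firre regions are of similar height, 7 of the 8 Ctc1 regions lie on tRNA genes, 1 region leads the Sox4 domain, and all Apba2 regions stay under 1 in both libraries.

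Many of the strongest domains are clusters of tRNA genes. In all, 72 of the 598 domain regions (12%) overlap a RefSeq tRNA gene, against 0.543% of all distal regions and 0.320% of those outside domains. They fall in 14 domains, 13 of which hold 3 or more such regions, and 11 of the 14 are among the 20 highest by summed signal. tRNA genes are not among the GENCODE start sites that defined distance, so these regions count as distal only by that annotation, and the description of the members as distal does not hold for them. In an alternative chosen after seeing the data, regions also had to lie over 1 kb from every RefSeq gene start, tRNA genes included. It left 53 domains, and 0 of them held a tRNA gene region, which follows from the filter itself.

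The Btn1a1 domain, ranked 2 (chr13:23401721-23467180), was the longest at 65.5 kb. It has 17 regions, 14 of them on tRNA genes, with sums of 40.7 in replicate 1 and 33.3 in replicate 2. The Ctc1 domain, ranked 3 (chr11:69035961-69041940), packed 8 regions into 5.98 kb at the end of and beyond the gene for a telomere replication factor, with sums of 31.1 and 24.5. Of its regions 7 each lie on 1 tRNA gene, for isoleucine, serine, threonine, proline, aspartate, glycine and tryptophan.

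Other tRNA domains were those nearest the iron-regulator gene Hfe2 (rank 7, 7 regions, 21.3 in replicate 1 and 18.5 in replicate 2), at Cfap126 (rank 8, 7 regions, 20.4 and 17.8) and nearest Olfr1423 (rank 9, 10 regions, 19.9 and 17.4). The Rnase12 domain (rank 11, 19.7 and 16.7) had 6 regions in 3.29 kb, the shortest span and the closest packing of all domains at 18.2 regions per 10 kb. Those nearest Trim27 (rank 13) and at Arl5c (rank 14) followed with 19.3 and 17.5 in replicate 1 and 15.4 and 15.5 in replicate 2. The Arl5c domain differs in that 2 of its 6 regions lie on tRNA genes, both for cysteine. Over the 14 domains, 75 tRNA genes were overlapped by a region, for each of the standard amino acids. Leucine was the most frequent with 10 genes in 9 domains. Counts by amino acid over all tRNA genes are not given, so this count has no background. Domain spans hold 85 of the 425 tRNA genes that RefSeq places on the chromosomes, and 175 of the 425 were overlapped by a shared distal region inside or outside domains.

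The 72 tRNA-overlapping domain regions had a median signal of 3.10 in replicate 1 and 2.46 in replicate 2. The 99 such regions outside domains had 2.23 and 1.81, and other distal regions of any kind 0.844 and 0.712. The tRNA-overlapping domain regions had 4.25 footprints per region in replicate 1 and 4.04 in replicate 2, and 0% and 1.39% of them had none. The 99 outside domains were alike, at 4.39 and 3.95 per region, with none in 0% and 1.01%. Of the 55 regions of tRNA domains with the B box anywhere in the region, 50 had a footprint over it in each library (90.9%). Outside domains the box was in 186 regions, with a footprint over it in 45.7% and 43.0%. These 186 were not limited to tRNA genes, so the shares are not of like regions. In the 47 remaining domains, where no region overlaps a tRNA gene, 8 regions held the box. A footprint lay over it in 3 of these in each library (37.5%). A pair of domains on chromosome 6 hold the box with no listed tRNA gene, 1 region nearest Ezh2 (rank 17) and 2 nearest Pdia4 (rank 23, 38.9 kb). In the Pdia4 domain 5 of the 6 regions have copies elsewhere on chromosome 6.

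Further down the ranking, domains linked to genes of the forebrain and upper-layer lists had lower sums. Sox4 encodes a transcription factor of neuronal differentiation. Its domain, ranked 32 (chr13:28948581-28959840), held 7 regions with sums of 12.8 in replicate 1 and 9.19 in replicate 2. Region 4, whose sequence is shown above, had 4.81 and 3.09 and lies 4268 bp from the nearest TSS, and the other 6 ran from 0.770 to 2.45 in replicate 1 and from 0.549 to 1.78 in replicate 2. The Id2 domain, ranked 38 (chr12:25092321-25101244), surrounds the gene of an inhibitor of basic helix-loop-helix factors. Its 8 regions summed to 10.8 and 8.37, and the highest, on the downstream side of the gene, reached 3.60 and 2.84.

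The Pou3f2 domain, ranked 54 (chr4:22477041-22498941), surrounds the gene for the upper-layer neuron factor BRN2. Its 8 regions summed to 7.57 in replicate 1 and 6.12 in replicate 2, none above 1.68 in either library. The Otx1 domain, ranked 73 (chr11:21993641-22004874), had 7 regions with sums of 3.38 and 3.10. OTX1 is a homeobox factor of deep-layer cortical neurons. Its median region signal of 0.449 and 0.395 places it among the weak domains. One Otx1 region was 2218 bp wide and covered coding sequence, with 13 and 12 footprints. In these 4 domains the genes' own promoters were accessible in both libraries, at 5.65 in replicate 1 and 3.89 in replicate 2 for Sox4, 5.72 and 4.03 for Id2, 2.36 and 1.34 for Pou3f2, and 1.21 and 0.806 for Otx1.

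Over all lists, 6 of 209 genes were linked to a domain (2.87%), against 0.396% of the 21951 protein-coding genes. The forebrain transcription factor list gave 4 of 20, Sox4, Id2 and Otx1 among them, the upper-layer neuron list 1 of 11 (Pou3f2) and the housekeeping list 1 of 16. The other 11 lists gave 0, among them deep-layer and glutamatergic neurons, inhibitory interneurons (0 of 20), astrocytes (0 of 13), oligodendrocytes (0 of 15), microglia (0 of 14) and activity-regulated genes (0 of 20). In bulk tissue a low signal from few cells cannot be told apart from weak accessibility in many. The counts are small, and the lists were written with earlier results of these data known.

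Of the 87 genes linked to a domain, 65 had a promoter peak in both libraries, or 74.7% (exact binomial 95% interval 64.3 to 83.4, counting error only). Over all protein-coding genes the share was 58.8%. The median promoter strength of the linked genes was 2.83 in replicate 1 and 1.71 in replicate 2, close to 2.94 and 1.88 over all protein-coding genes, each among genes with a peak. The genes whose body overlaps a domain gave 46 of 56, or 82.1%.

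The highest domains that were neither tRNA clusters nor on X or Y lay at Sfi1, Camta1, near Ptma and Tex44, and at Kdm6b. The Sfi1 domain (rank 6, chr11:3123241-3138554) overlaps the end of a gene for a centrosomal protein, and 5 of its 8 regions, the 2 strongest among them, lie outside that gene. Its sums were 23.1 in replicate 1 and 18.3 in replicate 2, and 4 of the regions have copies on chromosomes 17 or 5. A second domain at Sfi1 (rank 30, 9 regions, 11.9 and 10.6) lies beside it. The Camta1 domain (rank 10, chr4:151140701-151165820) lies in introns of a calmodulin-binding transcription activator of neurons. Its 6 regions summed to 20.5 and 15.9, of which region 3, with a CTCF consensus, gave 9.20 and 7.20. The Ptma and Tex44 domains (ranks 12 and 15) lie on the same stretch of chromosome 1, with sums of 21.3 and 17.8 in replicate 1 and 14.2 and 14.6 in replicate 2. The Kdm6b domain (rank 16, chr11:69408461-69419196), at a histone demethylase gene, had 6 regions, all between 1.95 and 4.95 in replicate 1 and between 1.53 and 3.32 in replicate 2. In all, 16 of the 79 domains have another domain within 100 kb.

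Domains in neuronal genes further down the ranking were those at Adgrb1, an adhesion receptor gene (rank 26, 13.7 in replicate 1 and 11.2 in replicate 2) and at Atp2b2, a plasma membrane calcium pump gene (rank 66, 5.47 and 4.69). The ratio between the libraries was 1.55 at Afap1 and 1.54 at Trim14, among the 3 highest. Domains at Irf2bpl (41.4 kb) and nearest Pdia4 were among the 5 longest, after Btn1a1 and Firre. The domain ranked 67 (chr3:17785641-17798700, 4.80 and 4.63) covers Mir124-2hg, a host gene of the neuronal microRNA miR-124, although its nearest protein-coding gene by the naming rule is Cypt12, 149709 bp away. The Stac3 domain (rank 24, 14.7 and 11.3) was among the 5 most closely packed, at 12.6 regions per 10 kb.

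The 14 weak domains hold many wide regions close together, with low signal by definition. Their 126 regions had a median signal of 0.275 in replicate 1 and 0.266 in replicate 2 and a median width of 400 bp, against 1.20 and 0.961 and 240 bp in the 47 remaining domains. No footprint was called in 42.1% of them in replicate 1 and 46.0% in replicate 2, against 6.23% and 9.51% in the remaining domains. Footprints numbered 4.14 and 3.02 per kb of region, against 11.0 and 9.01. Regions of equal signal were not compared, and whether the lower signal accounts for the fewer footprints was not tested. None of the 126 has a copy. The spans of these 14 domains also held 79 peaks called in replicate 1 alone and 40 in replicate 2 alone, of 201 and 97 in all domain spans. Under the stricter peak lists 6 of the 14 shared a region with a domain, as did 8 of the 14 tRNA domains, 2 of the 4 on X and Y and 4 of the remaining 47.

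The Apba2 domain (rank 65, chr7:64496361-64513400), across the start of a gene for a neuronal adaptor protein, had 18 regions, the second largest number, with sums of 5.16 in replicate 1 and 5.01 in replicate 2 and medians of 0.234 and 0.232. The Acap3 domain (rank 61) had 14 regions with sums of 6.51 and 5.39, of which regions 2 and 3 alone gave 1.61 and 1.98 in replicate 1 and 0.892 and 1.56 in replicate 2. At Dclk1, which encodes a doublecortin-like kinase of young neurons, 11 regions in 9.05 kb summed to 4.61 and 3.87. The domain nearest Plxna1, a semaphorin receptor gene, had 11 regions with 2.97 and 3.10. The Shh domain (rank 62, chr5:28451281-28470080), at the gene for the morphogen Sonic hedgehog, summed to 7.08 and 4.82, with 3.64 and 2.06 from region 1, while 5 of its 8 regions lay at or below 0.240 in both libraries. The Irx5 domain (rank 75, 2.94 and 2.85) lies at another homeobox gene. The lowest were Fam217b, whose ratio of 0.850 was also the lowest, and Mettl24, with 6 regions in 4.30 kb and sums of 1.75 and 1.42.

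**Figure D3:**
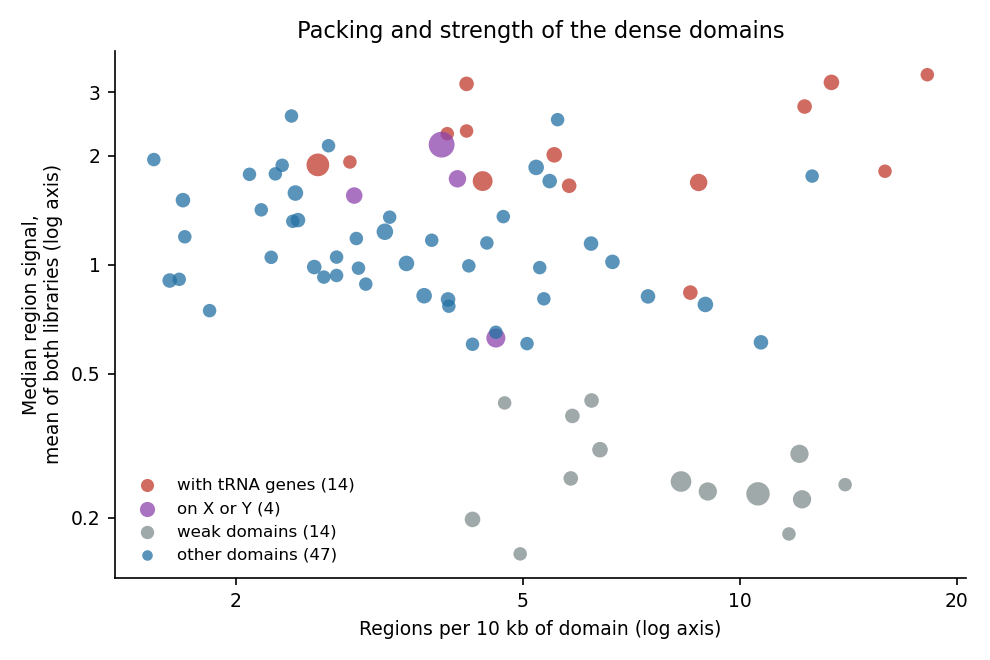
Regions per 10 kb of domain (log axis) against the median region signal as the mean of both libraries (log axis), 1 point per domain, with an area in proportion to its number of regions. Among closely packed domains the tRNA domains (red) lie high and the weak domains (grey) low, which for the grey points follows from their definition.

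Over all members, the domain regions had a median signal of 1.13 in replicate 1 and 0.901 in replicate 2, against 0.844 and 0.712 for the 30917 distal regions outside domains. The ratio was 1.34 and 1.27 (mean 1.30 ± 0.0511 SD, n = 2). Because the members were chosen on the same peaks, the ratio is a description. It was 1.15 without regions on tRNA genes, and it was below 1 with closer stitching (0.966 at a gap of 5 kb) or a higher minimum (0.896 at 10 regions). With domains drawn from 1 library alone it was 0.932 without replicate 1 and 1.00 without replicate 2. Footprints per region numbered 3.12 and 2.61 against 2.58 and 1.99, while per kb of region they were 9.30 and 7.78 against 10.5 and 8.08, and domain regions were wider, with medians of 260 and 220 bp. A footprint was missing from 13.5% and 17.4% of domain regions, and from 7.46% and 16.6% of the others.

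Domain regions lay nearer to gene starts, with a median TSS distance of 6.35 kb against 12.1 kb, although all are over 1 kb away by the rule. They were more often intergenic (56.5% against 47.3%) and less often intronic (35.6% against 46.2%). By kind, 93.0% of regions were intergenic in tRNA domains, 54.8% in the 47 remaining, 42.1% in the weak and 22.6% in those on X and Y. Their median GC content was 52.8% against 50.9%, and the ratio of observed to expected CpG was 0.378 against 0.271. In the tRNA-overlapping regions that ratio was 0.822 inside domains and 0.802 outside them. Regions with a copy elsewhere in the genome or in their own domain numbered 54 (9.03%), where all distal regions gave 1.34%. Of these 54, 32 are on X and Y and 22 in the remaining domains, among them 6 of the 6 regions of the domain named for Defb33 (rank 63), a gene 503008 bp away, and 6 of the 7 nearest Akap1 (rank 60).

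Short sequences were searched on both strands in the central 200 bp of each region. The CTCF consensus was in 40 of the 598 domain regions, or 6.69% (exact binomial 95% interval 4.82 to 9.0), against 12.1% of the distal regions outside domains. The share differed by kind of domain. It was 12.1% of regions in the 47 remaining domains (8.69 to 16.3). It was 1.75% in tRNA domains, 0.794% in weak domains and 0 of 53 on X and Y, which allows up to 6.72%. Only exact matches to the consensus were counted. A lack of matches therefore does not show a lack of CTCF sites, and the repeats of Firre and Dxz4 are known to bind CTCF. Where the consensus was present anywhere in a domain region, a footprint overlapped it in 97.6% of cases in both libraries, against 96.2% in replicate 1 and 91.6% in replicate 2 outside domains. The word TTGGCA, 1 arm of the palindromic NFI site, was in 9.36% of domain regions (7.15 to 12) and in 17.6% of the others, and in 12.5% of the remaining domains (8.97 to 16.7). The homeobox word TAATTA was in 1.51% (0.690 to 2.84) against 3.34%, and the neurogenic E-box CAGATG in 17.9% (14.9 to 21.2) against 22.4%. The full NFI site was in 0 of the 598, which allows up to 0.615%, and in 0.120% of the others. The share was higher in domain regions for 6 of the listed sequences. These were the SP/KLF word GGGGCGGGG with 2.17% (1.16 to 3.69) against 1.26%, the CRE TGACGTCA with 0.836% (0.272 to 1.94) against 0.463% and the ETS word CCGGAAGT with 0.669% (0.183 to 1.70) against 0.330%. The ROR site had 0.669% (0.183 to 1.70) against 0.272%, the EGR site 0.669% against 0.537% and the POU octamer 1.51% against 1.29%. For each of these 6, the share outside domains lay within the interval of the domain regions. The B box was in 9.03% of domain regions and 0.479% of the others, and the word GGCAGTAGA in 3.68% and 0.427%, both searched because they had been seen. Regions of 1 domain share their locus and often their sequence, so the intervals cover counting error only and treat regions as independent.

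**Figure D4:**
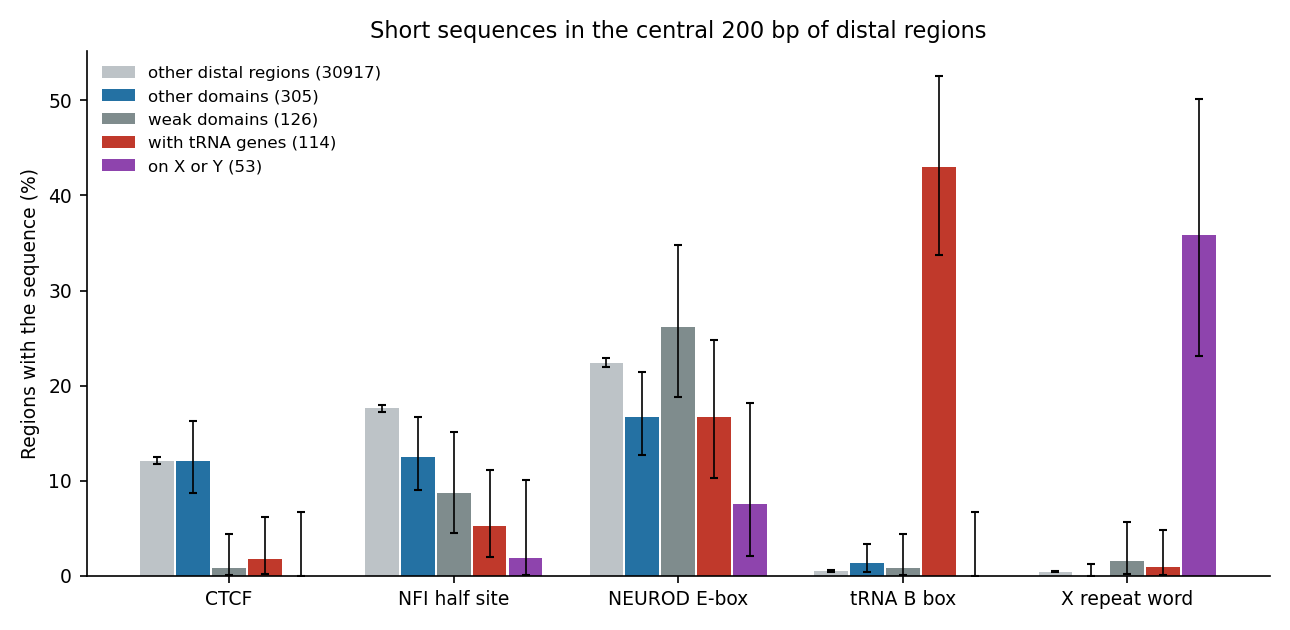
Percentage of regions with each short sequence in the central 200 bp, by kind of domain, with exact binomial 95% intervals, the number of regions in brackets. The tRNA B box was in 43.0% of regions in domains with tRNA genes, a kind defined by those genes. The X word GGCAGTAGA was in 35.8% of regions on X or Y, all in the Firre and 4933407K13Rik domains. Both sequences were chosen after the data had been seen, so neither share is a test. CTCF in the remaining 47 domains equals other distal regions (12.1%).

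By chromosome, 11 domains lay on chromosome 11 (13.9% of domains, 6.64% of shared distal regions) and 10 on chromosome 2 (12.7% and 7.78%). There were 7 on chromosome 15 (8.86% and 4.25%). Chromosomes 16 and 18 had 0 domains and hold 3.44% and 3.40% of the shared distal regions, so few domains would be there by share alone. The X chromosome had 3 domains, which hold 41 of its 647 shared distal regions (6.34%), against 3.59% on chromosome 11.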

How the data were processed

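Members and gene lists were chosen with earlier results of these data known. Per the deposited notes, the authors derived the lists of peaks, footprints and FDR cut rates from each library's own mm10 alignments. The aligner is not given in the sources used here. Peak strength is a signal normalized for read depth by the authors. The deposited FDR values (p-value scale) are listed below 0.05. Footprint files carry a constant in the value column, so that deposited value was not used. The longer peak list of each library was used (93641 and 66196 peaks), merged with at least 1 bp of overlap, and the maximum per library taken. No read counts were used, so depth is unknown beyond peak numbers.

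Start sites came from GENCODE M21, tRNA genes and sequence from RefSeq GRCm38.p6. Promoter windows were 500 bp on each side of a TSS. Copies came from BLAST 2.17.0 with a word size of 48. Intervals used scipy 1.17.1, sequences pysam 0.24.0, tables numpy 2.4.6 and pandas 2.3.3. Merging and stitching were tested on simulated data. The naming rule took the 15 highest domains, the 5 with most regions, most per 10 kb and longest, those linked to 14 gene lists, and the 3 highest and lowest library ratios. Other named domains, the 4 kinds, both X words, the B box and 3 alternatives were chosen after seeing the data. With 1 group of 2 libraries no test was possible. Some domains that the naming rule takes are not reported here.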

Additional observations from a re-analysis of the deposited data

How the results depend on the processing

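The limits are those of 2 libraries of unknown depth in 1 group, of a mixed-strain genome read against 1 reference, and of regions that share loci. No paired analysis was possible because there is 1 group. The rank agreement kept a value of 0.964 to 0.992 under every alternative that gave one; single libraries give none. The cause of a change was not tested, except where the alternative itself removes regions. Values follow in 1 order: domains, percent of distal regions in domains, signal ratio, percent with CTCF, percent of genes linked. The CTCF share of the distal regions outside domains is not given for the alternatives, so their CTCF shares have no background.

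The stricter lists gave 22, 1.17, 1.10, 2.11 and 0.100, and 59.1% of linked genes had a promoter peak. The share over all protein-coding genes is not given for the stricter lists. The 59.1% therefore cannot be set beside the 58.8% of all genes, which is from the longer lists. Of the 79 domains, 20 shared a region with one of these 22. A 5 kb gap gave 39, 0.942, 0.966, 2.36 and 0.173, turning the signal ratio below 1. A 25 kb gap gave 307, 7.21, 1.37, 10.8 and 2.34. A minimum of 5 regions gave 189, 3.64%, 9.58% with CTCF and 0.920%. A minimum of 10 gave 11, 0.473, 0.896, 0 and 0.0592, again with the ratio below 1. A TSS distance of 500 bp gave 2.56% and 0.665%, and 2.5 kb gave 45 domains, 1.21% and 0.210%. With 50% reciprocal overlap there were 40 domains, 1.15%, a ratio of 1.60 and 0.196%. Equal peak numbers gave 1.65%, 1.49 and 0.314%. Summing peaks within a region gave a ratio of 1.37.

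Without replicate 1 or 2 the domains numbered 221 and 729, and the percent of regions was 4.66 and 10.8. The ratio was 0.932 and 1.00, and footprints per region numbered 1.65 and 1.79. CTCF was in 4.51% and 4.96% of regions, and 1.08% and 3.82% of genes were linked. Of the linked genes, 81.0% and 83.3% had a promoter peak in the 1 library used. The 74.7% and 58.8% given above require a peak in both libraries, so these are unlike measures. No single-library share over all genes is given. Added after seeing the data, a distance from RefSeq starts gave 53 domains, 1.31%, 1.12, 0.255% and 83.9% of linked genes with a promoter peak. Without tRNA regions the percent was 1.57 and the ratio 1.15, and without regions with a copy 1.70%. Values not listed stayed within the tolerance, which for domain counts was 1.5-fold. Within it, the domains numbered 118 at a TSS distance of 500 bp and 61 with equal peak numbers. They numbered 66 without tRNA regions and 72 without regions with a copy.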

Other observations

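Taken from 1 library alone, the same stitching gave more domains: 729 from the peaks of replicate 1 and 221 from those of replicate 2. All 79 domains shared a region with the first set and 78 with the second. Near the members, 29 of the 79 spans also hold a shared region within 1 kb of a TSS, among them 10 such regions in the Acap3 span, 7 at Mid1 and 5 at Pou3f2.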
